A study of Mus musculus with 18 samples.

Results

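Jdp2 and the AP-1 family were followed through 4 kinds of captured mouse thyroid tissue. The genes were Jdp2, the Jun genes (Jun, Junb, Jund), the Fos genes (Fos, Fosb, Fosl1, Fosl2) and the related factors Batf and Atf3. They were found by name among the gene probes of the arrays, including the older names Jundm2 for Jdp2 and Jund1 for Jund. The 10 genes had 12 probes of 41174 in all, and 8 of the 10 passed the filter on dim probes, out of 14664 genes that did so. Fosl1 and Atf3 did not pass. The family was chosen by the Jdp2 ratios, which differed between the dissected and the normal central area when the same arrays were first analysed. That comparison is therefore described for all members without a test.

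The study asked how thyroid cells respond to partial thyroidectomy, the surgical removal of part of the gland. All groups were thyroid areas of male C57BL/6 mice, cut from frozen sections by laser capture. They were the central area after partial thyroidectomy (dissected central, 5 arrays), the central area without it (normal central, 5 arrays), the peripheral area after it (dissected peripheral, 5 arrays) and the peripheral area without it (normal peripheral, 3 arrays). Thyroid RNA was amplified and labelled with Cy5, and each array also carried a common reference of assorted Swiss Webster mouse tissues in Cy3. Every level below is a log2 ratio of thyroid over reference after loess within its array. A ratio of 0 thus means the usual ratio of probes of like intensity on that array, not equal raw signal. Every difference is a difference of such ratios. Summed Cy5 signals, where given, are raw mean intensities and also follow the brightness of each array. The labels do not say how long after surgery the tissue was taken or which mouse each area came from. Areas may thus share a mouse, and the p-values may be too small. In captured tissue, fewer cells of a type and less RNA per cell cannot be told apart.

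The Cy5 signal was well above background for at least 24.7% of gene probes on each of the 18 arrays, and the number of arrays limits the precision. The arrays lay on 5 slides, and slides 1, 2 and 4 held all 4 groups. Slide counts that involve normal peripheral tissue thus use only these slides. Where all slides went 1 way for a gene, the share of all genes doing so was not computed, and nothing is read from the count. Tg, the thyroglobulin gene of thyroid follicular cells, was well above background on all 18 arrays. Calca, the calcitonin gene of C cells, was also well above background on all 18. Dissected central 2 had a C cell list mean of -1.22, against 0.10 to 1.04 on the other dissected central arrays.

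AP-1 is a dimer of basic leucine zipper proteins, in which a Jun protein binds another Jun protein or a Fos protein and the pair then binds DNA. Fos, Fosb, Jun and Junb are immediate early genes, which means that growth factors, stress or injury switch them on within minutes without new protein synthesis. Jdp2 (Jun dimerization protein) and Batf pair with Jun proteins but lack the strong activating region of Fos, and Jdp2 is known mainly as a repressor that recruits histone deacetylases. In cultured rat thyroid cells, thyrotropin is known to induce Fos.

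Fos, Jdp2 and Batf lie in this order on mouse chromosome 12, with 0 other protein-coding genes annotated between them. Their array probes start 162756 bases (Fos to Jdp2) and 69215 bases (Jdp2 to Batf) apart on build mm7. The 120 bases before a RefSeq start (build GRCm38.p6) are shown for these neighbours and for Jun, since the levels of these 4 genes carry most of what follows. Capitals mark TGACG, the core shared by CRE-type sites, or TGACATCA, the form known from the Jun promoter.
Jdp2, the second of 3 annotated starts, chr12:85599296-85599415, plus strand: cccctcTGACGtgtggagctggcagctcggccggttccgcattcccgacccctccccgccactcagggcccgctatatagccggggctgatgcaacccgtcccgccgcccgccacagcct
Fos, chr12:85473770-85473889, plus strand: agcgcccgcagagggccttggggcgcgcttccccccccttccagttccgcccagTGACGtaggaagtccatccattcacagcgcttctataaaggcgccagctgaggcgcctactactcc
Batf, chr12:85686600-85686719, plus strand: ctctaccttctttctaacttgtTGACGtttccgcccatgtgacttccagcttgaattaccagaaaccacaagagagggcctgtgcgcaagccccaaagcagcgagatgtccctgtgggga
Jun, chr4:95052223-95052342, minus strand: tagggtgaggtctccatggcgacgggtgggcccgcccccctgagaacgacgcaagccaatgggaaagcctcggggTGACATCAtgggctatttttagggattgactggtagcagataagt

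The motifs TGANTCA, TGACGTCA, TGACATCA and TGACG were searched on both strands of 300-base windows. TGACG also lies inside TGACGTCA. The windows end 50 bases past each start. TGACG was found in 6 of the 11 member windows (Jdp2, Fos, Fosb, Junb, Batf and Atf3) and in 20.8% of all 32851 windows. For Jdp2 only the start printed above had it, and none of these motifs was found at its other starts. TGACATCA was found for Jun, 45 bases before its start, and in 3.62% of all windows. TGANTCA and TGACGTCA were found in 0 of the 11 member windows, and in 7.81% and 1.79% of all windows. A match says only that the letters are present.

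Jdp2 was lower in the normal central area than in the other 3 groups. The dissected central arrays had Jdp2 ratios of 0.21, 0.31, 0.28, 0.04 and 0.12, against -0.72, -0.50, -0.70, -0.70 and -0.38 on the normal central arrays. Every dissected central array lay above every normal central array, so the groups did not overlap. Of all genes tested, 0.43% were higher in this non-overlapping way, and nothing is read from this count, because this comparison chose Jdp2. The means were 0.19 ± 0.11 (SD, n = 5) in dissected central and -0.60 ± 0.15 (SD, n = 5) in normal central tissue, a difference of 0.80 or 1.74-fold. Without overlap the dissected central array must be the higher one on each of the 5 slides, and it was so by 0.50 to 0.99. With the Cy5 signal alone the difference was 0.65. It was 0.60 with median centring without loess, 1.01 with the scanner's processed signals and 1.00 with the authors' value table.

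In the peripheral area Jdp2 did not separate dissected from normal tissue. The dissected peripheral arrays had -0.10, 0.01, -0.23, 0.48 and 0.30, and the normal peripheral arrays had -0.05, 0.05 and 0.14. The normal values lay inside the range of the dissected ones. The means were 0.09 ± 0.29 (SD, n = 5) and 0.05 ± 0.10 (SD, n = 3) for dissected and normal peripheral tissue. Their difference of 0.05 had a 95% interval from -0.28 to 0.37 and an adjusted p of 0.963 by limma. It was 0.46 when arrays were only centred on their median without loess. None of the 8 members tested was called in this comparison, in which 0% of all genes were called. At an unadjusted p under 0.05, the limma counts were 0 of the members and 1224 of all 14664 genes. The Jdp2 change after dissection, central minus peripheral, was 0.75, given without a test. It was 0.13 with median centring without loess.

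Set against its own periphery, normal central tissue had a Jdp2 difference of -0.65, and all 5 normal central arrays lay below all 3 normal peripheral arrays. Of all genes, 1.28% were lower in this non-overlapping way, and nothing is read from it for Jdp2, whose normal central arrays also entered the comparison that chose it. The slide differences, which must be below 0 without overlap, were -0.85 to -0.55 on 3 of 3 slides. The mean difference was -0.21 when arrays were only centred on their median without loess. In dissected thyroid, central and peripheral Jdp2 overlapped and differed by 0.10, with central higher on 3 of 5 slides. This was -0.07 with median centring without loess and 0.0059 without the 4 weak arrays, those with the fewest probes above background. None of the 8 genes separated these 2 groups, as 1.67% of all genes did. By group mean, normal central tissue was lowest and did not overlap its neighbour, normal peripheral tissue. The other 3 groups overlapped, and the order of their means (dissected central, dissected peripheral, normal peripheral) was not settled.

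**Figure D1:**
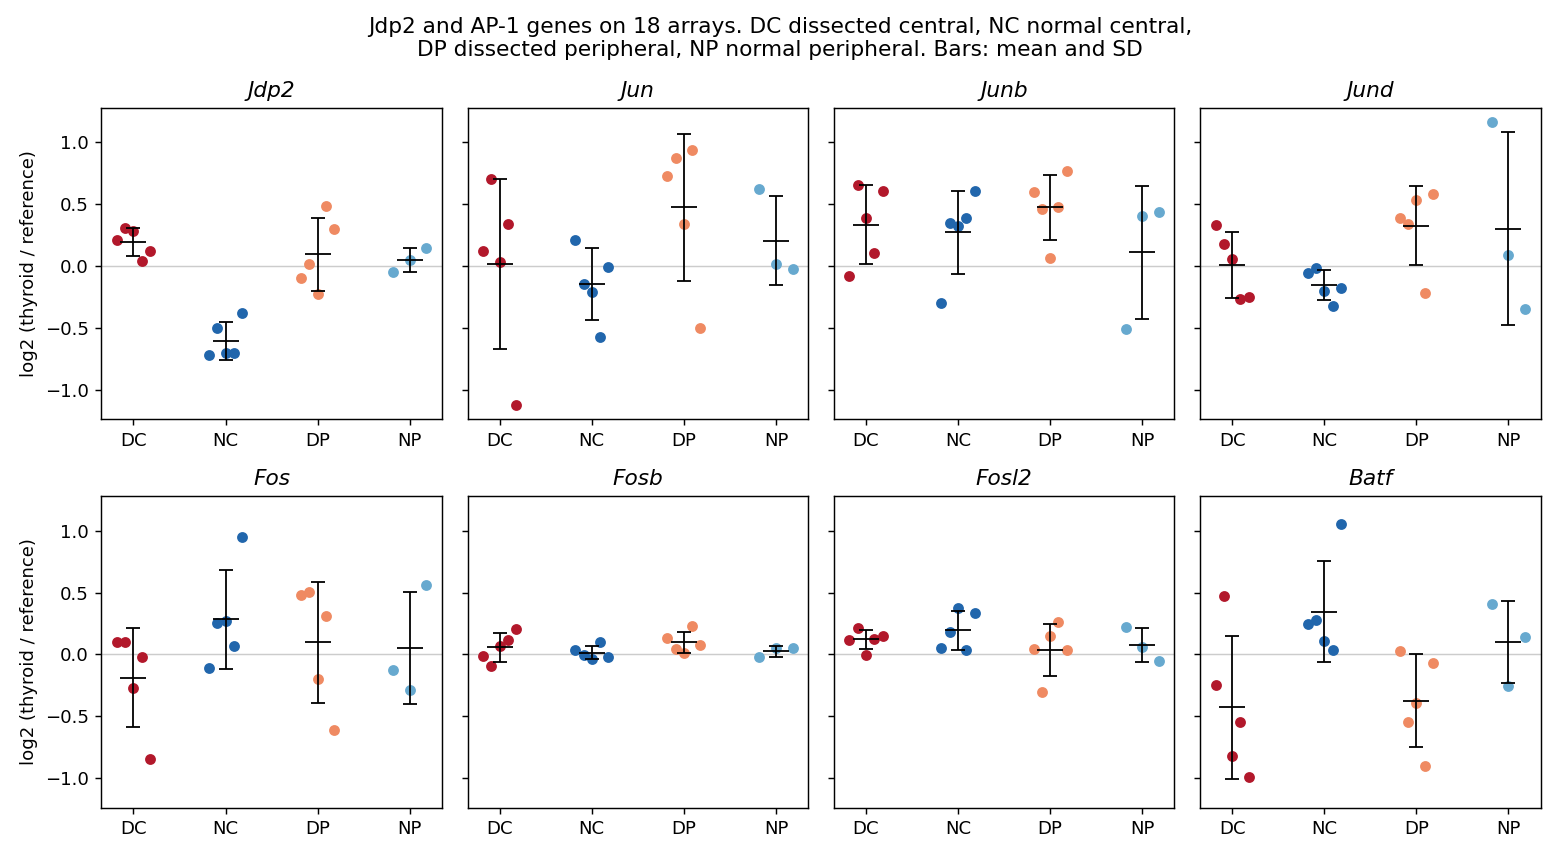
Log2 ratio of thyroid over reference (vertical axis) for the 8 genes that passed the filter, one point per array in dissected central (DC), normal central (NC), dissected peripheral (DP) and normal peripheral (NP) tissue, with the mean and SD in black. Jdp2 in normal central tissue, between -0.72 and -0.38, lies below all other Jdp2 points, while for the other 7 genes the groups overlap in each of the 4 comparisons made.

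Markers of macrophages were set beside Jdp2. Their list holds Adgre1 (F4/80), which was among the genes most correlated with Jdp2 on these same arrays. Of the 8 macrophage genes listed, 7 were measured, 6 of the 7 were above 0 in dissected minus normal central tissue, with a median of 0.25, and 0 were called. In the peripheral area 7 of 7 were above 0, with a median of 0.14, and 0 were called. In normal central minus peripheral tissue 3 of 7 were above 0, against 52.3% of all genes, with a median of -0.05 and 0 called. The summed Cy5 signal of the list ran between 3721 and 25663 in dissected central, 9209 and 62187 in normal central, 4509 and 42158 in dissected peripheral and 5214 and 8865 in normal peripheral arrays. No array had fewer than 4 of the 7 well above background. Over all genes, 48.7% were above 0 in the central and 51.0% in the peripheral comparison, and 0% were called in either. Of 8 mast cell genes 5 were measured, and 3 of these were above 0 for dissected minus normal central tissue (median 0.63, 0 called) and 2 for dissected minus normal peripheral tissue (median -0.16, 0 called). Their summed Cy5 signal was 513 to 2207 in dissected central, 797 to 1456 in normal central, 563 to 1283 in dissected peripheral and 469 to 801 in normal peripheral arrays. Of the 11 C cell genes measured, 0 were above 0 in either area, with medians of -0.67 centrally and -0.89 peripherally and 0 called. Of 5 skeletal muscle genes measured, 5 were above 0 centrally (median 0.39) and 5 peripherally (median 0.24) for dissected minus normal tissue, 0 called. Of 7 fat genes measured, 4 were above 0 centrally (median 0.24) and 2 peripherally (median -0.18) in that comparison, 0 called. In normal central minus peripheral tissue 0 of these 7 were above 0 (median -0.40, 0 called). The part of macrophages, mast cells, C cells, muscle and fat in the Jdp2 values was not tested.

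Jun, the founding Jun protein, had the largest SD over arrays of the 8 genes. Its probe was spotted 10 times on each array, with a median SD between spots of 0.05, against an SD of 0.54 over the 18 arrays. The dissected central arrays had Jun ratios of 0.12, 0.70, 0.03, 0.34 and -1.12, and the normal central arrays had 0.21, -0.15, -0.21, -0.58 and -0.01. Dissected peripheral tissue had 0.73, 0.87, 0.34, 0.94 and -0.50, and normal peripheral tissue had 0.62, 0.02 and -0.02. The array of replicate 5 was the lowest in both dissected groups, and all 4 groups overlapped.

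By group mean, Jun ran from dissected peripheral (0.48 ± 0.59, n = 5) through normal peripheral (0.20 ± 0.36, n = 3) and dissected central (0.01 ± 0.69, n = 5) to normal central tissue (-0.15 ± 0.29, n = 5, SD for each). In dissected thyroid, Jun was lower centrally than peripherally on 5 of 5 slides, with differences of -0.62 to -0.17. The mean difference of -0.46 (SE 0.31) had an adjusted p of 0.837 by limma and was not called. With the slide as a block its SE was 0.25 and its adjusted p 0.665. In normal thyroid Jun was lower centrally on 3 of 3 slides, with a mean difference of -0.35 (SE 0.36, adjusted p = 0.834 by limma).

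After dissection, Jun was higher in the peripheral area on the 3 of 3 slides that held both groups, by 0.11 to 0.96. That count leaves out slides 3 and 5, whose dissected peripheral arrays had 0.34 and -0.50. The array of slide 5 lay below all 3 normal peripheral arrays. The mean difference over all peripheral arrays was 0.27 (95% interval -0.48 to 1.02, limma adjusted p = 0.880). Without slide 5, whose dissected arrays had the lowest Jun of their groups, it was 0.52 with an adjusted p of 0.503. In the central area the difference of dissected minus normal Jun was 0.16, and its sign was not stable. It was 0.58 and -0.12 on scan days 1 and 2, -0.11 without the 4 weak arrays and 0.48 without slide 5.

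**Figure D2:**
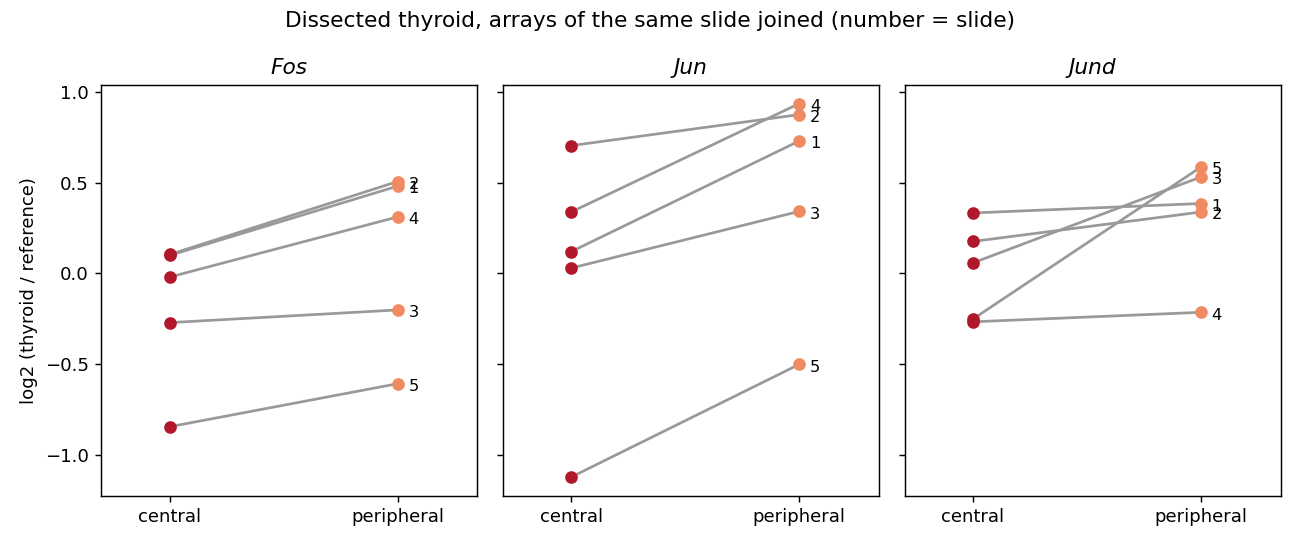
Fos, Jun and Jund in dissected thyroid as log2 ratios of thyroid over reference (vertical axis), with the central and the peripheral array of the same slide joined and the slide number beside the peripheral point. All 15 lines slope up toward the peripheral area, and slide 5 is the lowest for Fos and Jun, at -0.85 and -1.12 in its central array. None of these differences was called. The genes not drawn were mixed, with central higher on 3 of 5 slides for Jdp2 and Fosl2 and on 2 of 5 for Fosb, Junb and Batf. The share of all genes with every slide in the same direction was not computed.

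Jund, the Jun protein known for steady expression and restraint of growth, was well above background on all 18 arrays. The dissected central arrays had Jund ratios of 0.33, 0.18, 0.06, -0.27 and -0.25, against -0.05, -0.01, -0.20, -0.32 and -0.18 in normal central tissue. The dissected peripheral arrays had 0.38, 0.34, 0.53, -0.22 and 0.59, against 1.17, 0.09 and -0.35 in normal peripheral tissue. The 3 normal peripheral arrays thus spanned the whole range of the other groups. Their highest value came from normal peripheral 1, the array with the smallest share of probes above background.

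In dissected thyroid Jund was lower centrally than peripherally on 5 of 5 slides, with differences of -0.84 to -0.05. The mean difference of -0.32 (SE 0.23) had an adjusted p of 0.862 by limma. In normal thyroid it was -0.46 (SE 0.26, adjusted p = 0.657), and -0.02 without normal peripheral 1. None of the 7 members tested was called in normal or dissected thyroid, in which 0.28% and 0.586% of all genes were called between central and peripheral tissue, all of them higher centrally. Jund differed by 0.02 between dissected and normal peripheral tissue (95% interval -0.52 to 0.57, limma adjusted p = 0.992).

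Junb, a Jun protein that often opposes Jun in cell cycle control, was measured by 2 probes that share 22 of their 60 bases on chromosome 8 and yet gave different patterns. The ends where they overlap are printed below with the shared bases in capitals, on the minus strand of build mm7.
Junb probe 1, first 30 bases, chr8:83563089-83563118: TTCGTGTCTAAAGTCTATTTTAagatgtgt
Junb probe 2, last 30 bases, chr8:83563097-83563126: acacgcacTTCGTGTCTAAAGTCTATTTTA

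The first and brighter Junb probe stood for the gene. It had -0.08, 0.65, 0.39, 0.11 and 0.60 in dissected central, -0.30, 0.34, 0.32, 0.39 and 0.61 in normal central, 0.60, 0.46, 0.06, 0.47 and 0.77 in dissected peripheral and -0.51, 0.40 and 0.43 in normal peripheral arrays. All groups overlapped, and the lowest values were those of slide 1 in 3 of the 4 groups. Dissected minus normal peripheral tissue gave 0.36 (SE 0.25, limma adjusted p = 0.707), with dissected higher on 3 of 3 slides by 0.04 to 1.11, and 0.05 without normal peripheral 1.

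The second Junb probe had -0.13, -0.20, 0.02, -0.11 and 0.44 in dissected central, -0.94, -0.79, -0.21, -0.01 and 1.00 in normal central, 0.36, -0.41, -0.12, 0.62 and -0.31 in dissected peripheral and -0.57, -0.80 and -0.52 in normal peripheral arrays. By this probe every dissected peripheral array lay above every normal peripheral array, and the means differed by 0.65. Among all genes, 2.16% were higher in this way. It did not stand for the gene in the fit and has no p-value, and by the first probe these groups overlapped.

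**Figure D3:**
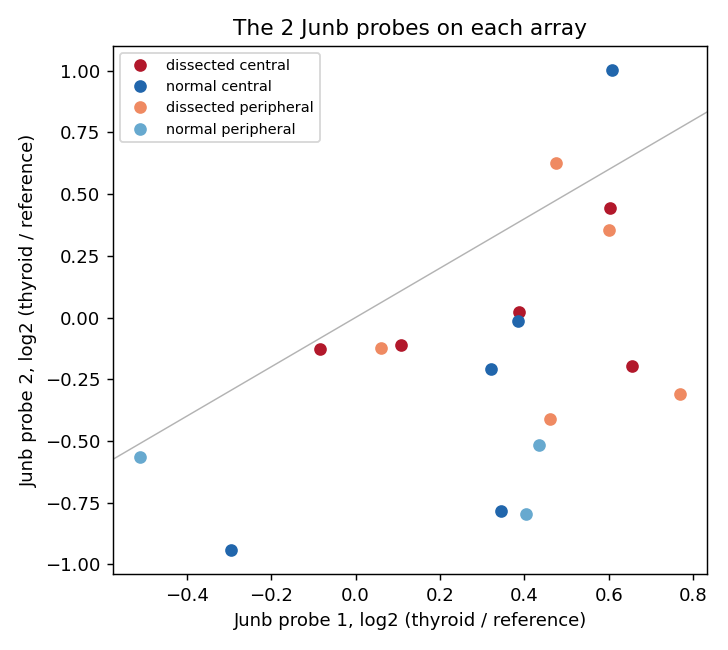
Log2 ratio of thyroid over reference by the second Junb probe (vertical axis) against the first (horizontal axis), one point per array coloured by group, with the line of equality. Most points lie below the line, and the 3 normal peripheral arrays are at -0.80 to -0.52 on the second probe but span -0.51 to 0.43 on the first.

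Fos, the prototype immediate early gene of the family, was well above background on 14 of the 18 arrays. Its 10 spots per array had a median SD of 0.07. Fos ratios were 0.10, 0.10, -0.27, -0.02 and -0.85 in dissected central tissue, against -0.11, 0.26, 0.27, 0.07 and 0.94 in normal central tissue. They were 0.48, 0.51, -0.20, 0.31 and -0.61 in dissected peripheral tissue, against -0.13, -0.29 and 0.56 in normal peripheral tissue. Slide 5 held the lowest value of both dissected groups and the highest of all 18, on its normal central array.

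By group mean, Fos was highest in normal central (0.29 ± 0.40), then dissected peripheral (0.10 ± 0.49), normal peripheral (0.05 ± 0.45) and dissected central tissue (-0.19 ± 0.40, SD, n = 5, 5, 3 and 5 in this order), with overlap between all neighbours. In dissected thyroid Fos was lower centrally than peripherally on 5 of 5 slides, with differences of -0.40 to -0.07. The mean difference was -0.28 (SE 0.26, limma adjusted p = 0.905). In normal thyroid central tissue was higher by 0.24 (SE 0.30, adjusted p = 0.869), on 2 of 3 slides. Dissected minus normal central tissue gave -0.47, and -0.14 without slide 5. Dissected and normal peripheral tissue differed by 0.05 (95% interval -0.58 to 0.67, adjusted p = 0.983 by limma).

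The remaining Fos genes varied little or were dim. Fosb, a second immediate early Fos protein, was well above background on 4 of 18 arrays (1 dissected central and 3 normal central), and its 18 ratios lay between -0.10 and 0.23. Its SD over arrays of 0.08 was smaller than that of all but 0.402% of genes. Fosl2 (Fra-2), a slower and longer-lasting Fos protein, was well above background on 14 arrays by the probe that stood for it and on 1 by its other probe. Its ratios lay between -0.30 and 0.37, and its tested differences between -0.04 and 0.12. Fosl1 (Fra-1), known as a late response gene, was well above background on a single normal central array.

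Batf, a small partner of Jun proteins known from lymphocytes, had a central difference of opposite sign to that of Jdp2. Its ratios were -0.25, 0.47, -0.82, -0.55 and -0.99 in dissected central tissue, against 0.25, 0.28, 0.11, 0.04 and 1.05 in normal central tissue. Dissected central 2 lay inside the normal range and the other 4 lay below it. The means were -0.43 ± 0.58 and 0.35 ± 0.41 (SD, n = 5 each) in dissected and normal central tissue, a difference of -0.77, given without a test. Without slide 5, which held both extremes, it was -0.46. It was -1.13 without the 4 weak arrays, -1.23 with the scanner's processed signals and -1.24 with the authors' value table.

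In the peripheral area Batf had 0.03, -0.54, -0.39, -0.90 and -0.07 after dissection, against 0.40, -0.25 and 0.14 in normal tissue. Dissected tissue was lower on the 3 of 3 slides that held both groups, with differences of -1.04 to -0.29, and the groups overlapped. The share of all genes with 1 direction on these slides was not computed. The difference of -0.47 (95% interval -1.11 to 0.17) had an adjusted p of 0.692 by limma and was not called. Central and peripheral Batf differed by -0.05 in dissected thyroid (adjusted p = 0.986) and by 0.25 in normal thyroid (adjusted p = 0.868). Of 8 lymphocyte markers 4 were measured, and 0 were called in either area. For dissected minus normal central tissue 2 of the 4 were above 0 (median -0.25, -0.57 to 0.10). For dissected minus normal peripheral tissue 1 of the 4 was above 0 (median -0.20, -0.29 to 0.50). Over all genes, 48.7% and 51.0% were above 0 in these comparisons. The summed Cy5 signal of the lymphocyte markers was 624 to 2435 in dissected central, 1792 to 3685 in normal central, 857 to 2914 in dissected peripheral and 647 to 1965 in normal peripheral arrays. The part of lymphocytes in the Batf values was not tested.

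Atf3, a stress-induced factor that can repress AP-1 sites, was well above background on 2 of the 5 dissected central arrays and on 0 of the arrays of the other groups. In the peripheral area it was not well above background in either state, so no fold is given. Its ratios were 0.06, -0.07, 0.03, 0.17 and -0.27 in dissected central and -0.05, -0.04, -0.26, -0.10 and -0.0048 in normal central tissue.

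**Figure D4:**
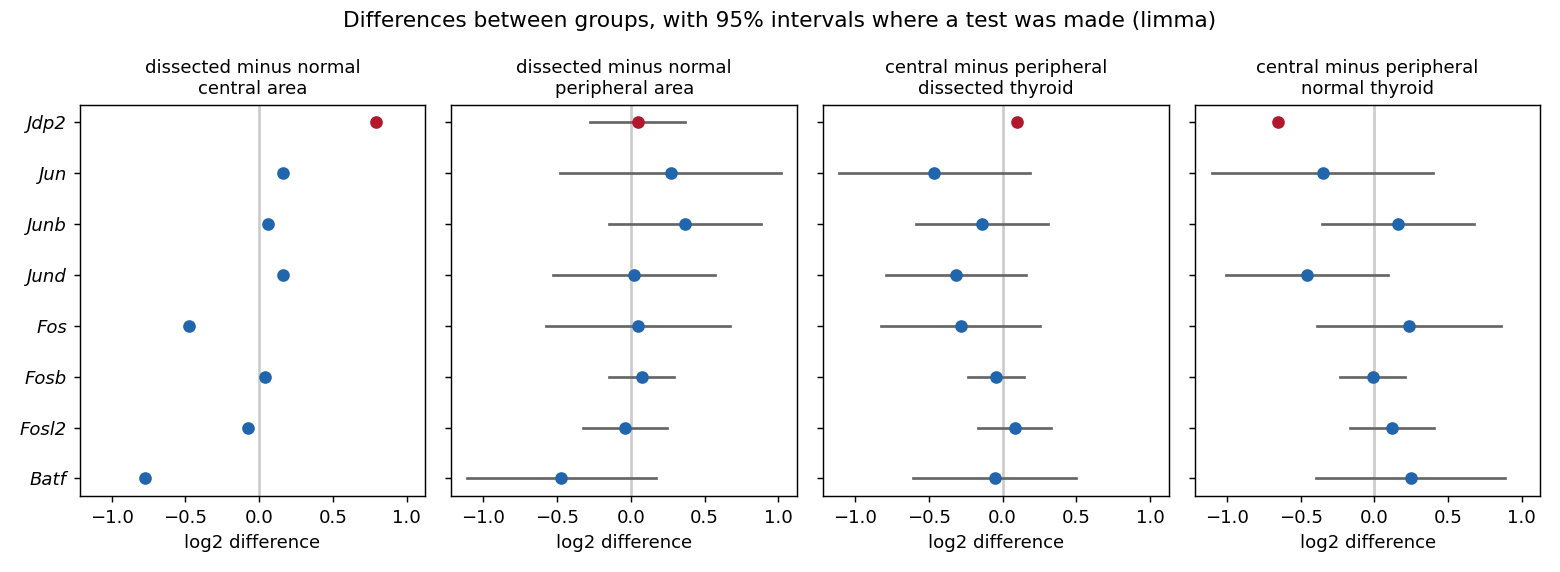
Differences of log2 ratios (horizontal axes) for the 8 genes in the 4 comparisons, with 95% intervals from limma where a test was made and the point alone where none was. Jdp2 is in red. Every interval drawn includes 0, and the largest points without one are Jdp2 at 0.80 and Batf at -0.77 in the central area.

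The members did not vary as a block. Over 28 pairs of the 8 genes, Pearson correlations over the 18 arrays ran between -0.70 and 0.50, with a median of -0.09. The highest was that of Fos with Batf at 0.50 (Spearman 0.39), which was 0.07 without the 2 arrays farthest from the Fos median. Fos and Jun correlated at 0.49 (Spearman 0.31), 0.40 without the 2 farthest arrays, and 0.64 when each array was taken as a deviation from its group mean. Jdp2 correlated with Jun at 0.26, with Jund at 0.21, with Fos at -0.23 and with Batf at -0.48. With group means taken out, these were 0.02, -0.27, 0.22 and 0.10 in the same order. All arrays share the reference, and arrays of 1 slide share a scan.

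The genes whose 18 values ran most like those of Jdp2 were Inf2, a formin that acts on actin (r = 0.88), Adgre1, the F4/80 antigen of macrophages (r = 0.81), Slc6a6, the taurine transporter (r = 0.72), Ccn5, a matricellular protein (r = 0.72), and Apoe, a lipid carrier (r = 0.71). The lowest were Grin2c, an NMDA receptor subunit (r = -0.80), Med27, a Mediator subunit (r = -0.76), and Eef1akmt2, a lysine methyltransferase (r = -0.75). Jdp2 itself falls into separate clusters of arrays, with normal central tissue apart, so these correlations are descriptions. With group means taken out, r was 0.71 for Inf2, 0.61 for Adgre1, 0.40 for Slc6a6, 0.22 for Ccn5 and 0.41 for Apoe. It was -0.30 for Grin2c, -0.54 for Med27 and -0.67 for Eef1akmt2. On dissected central arrays Inf2 averaged 0.30 ± 0.19, against -0.27 ± 0.22 on normal central ones (SD, n = 5 each). On dissected central arrays Adgre1 averaged 0.19 ± 0.36, against -0.72 ± 0.69 on normal central ones (SD, n = 5 each). Both genes were picked for running like Jdp2, which the same comparison chose, so nothing is read from these means. Ccn5 was well above background on 3 arrays and Grin2c on 10.

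**Figure D5:**
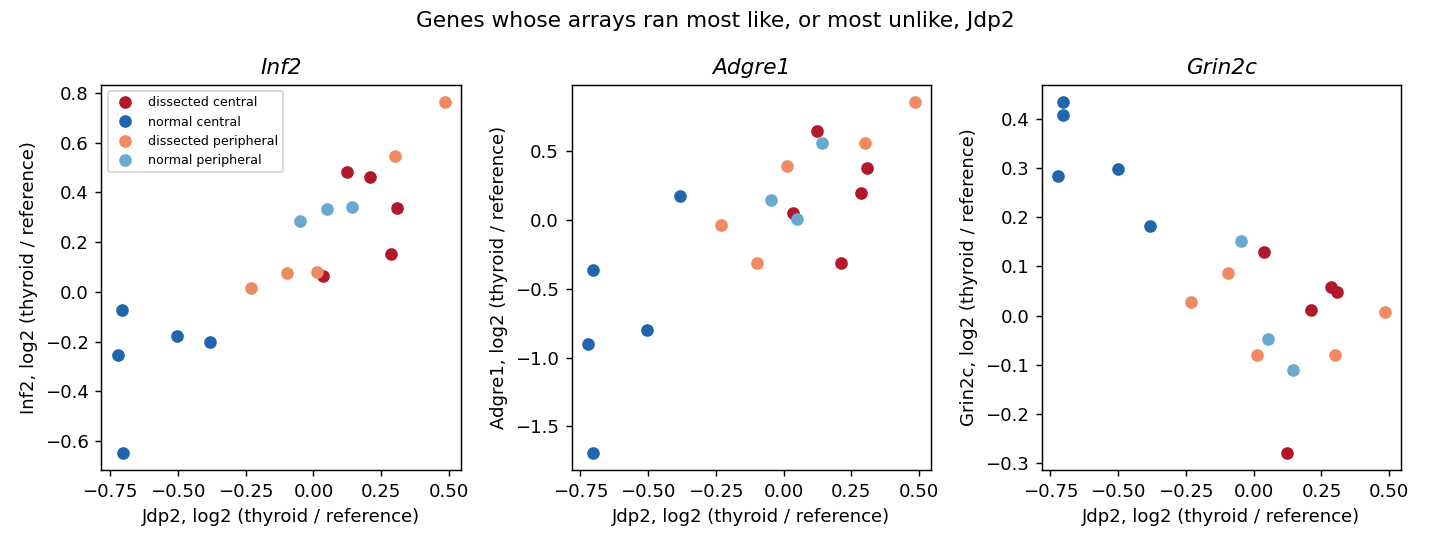
Log2 ratio of thyroid over reference for Inf2, Adgre1 and Grin2c (vertical axes) against Jdp2 (horizontal axes), one point per array coloured by group. The 5 normal central arrays stand apart at the left of each panel, below all other arrays for Inf2 and above all others for Grin2c. These genes were picked by their correlation with Jdp2 on these arrays, so nothing is read from this separation.

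The partners, upstream kinases, targets and cofactors gave 0 calls by limma in each of the 3 tested comparisons. At an unadjusted p under 0.05, each comparison had 1 partner, 3 or 4 upstream genes, 0 or 1 target and 0 or 1 cofactor. Over all 14664 genes that count was 1224 in dissected minus normal peripheral tissue, and 1259 in normal and 1089 in dissected central minus peripheral tissue. Of 21 other leucine zipper factors 19 were measured. In dissected minus normal peripheral tissue 16 of these 19 were above 0, with a median of 0.20. Over all genes 51.0% were above 0, with a median of 0.01. Among these factors Maff, a small Maf protein, was highest in that comparison, by 1.05 (SE 0.39, limma adjusted p = 0.533). In dissected minus normal central tissue 15 of the 19 were above 0, against 48.7% of all genes, with a median of 0.10. Cebpb, a factor of the acute phase response, was at -0.75 (SE 0.23) in normal central minus peripheral tissue, with a limma adjusted p of 0.294. Bach2, a partner of small Maf proteins known from B cells, was at 0.81 (SE 0.34, adjusted p = 0.593) in dissected central minus peripheral tissue.

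Of 25 upstream kinases, phosphatases and factors 21 were measured. Mapk10 (JNK3), the neural Jun kinase, stood 1.02 higher in dissected central than dissected peripheral tissue (SE 0.24, limma adjusted p = 0.0731) and 1.04 higher in normal central than normal peripheral tissue (SE 0.28, adjusted p = 0.171). Neither passed the threshold. C cell genes were higher centrally in the same comparisons, with 9 of 11 called in dissected and 7 of 11 in normal thyroid and medians of 2.98 and 2.45. The summed Cy5 signal of that list was 148201 to 682860 in dissected central, 514223 to 814773 in normal central, 63590 to 313117 in dissected peripheral and 121171 to 235522 in normal peripheral arrays. Most of it came from Calca, which alone ran between 61412 and 634193 over all arrays. The part of C cells in the central minus peripheral values of Jun, Jund, Fos and Mapk10 was not tested. Dusp4, a phosphatase of MAP kinases, and Rps6ka1, a kinase below ERK, were at -0.64 and -0.79 in dissected minus normal peripheral tissue, with limma adjusted p of 0.569 and 0.565. Rps6ka1 was at -0.79 (adjusted p = 0.459) in normal central minus peripheral tissue as well, a comparison with the same normal peripheral arrays.

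Of 24 known AP-1 targets 17 were measured, and their medians were -0.05 in dissected and -0.09 in normal central minus peripheral tissue and 0.02 in dissected minus normal peripheral tissue. The metallothionein Mt1 was at -0.63 (SE 0.24, limma adjusted p = 0.434) in normal central minus peripheral tissue, the target with an unadjusted p under 0.05. Mt1 was at -0.33 (adjusted p = 0.808) and Mt2 at -0.59 (adjusted p = 0.689) in dissected central minus peripheral tissue, both by limma. Ezr and Cd44, a membrane linker and its partner receptor, were at 0.50 and 0.46 in dissected minus normal peripheral tissue, with adjusted p of 0.626 and 0.633. Of 6 Jdp2 cofactors 4 were measured. Among these, the histone deacetylase Hdac1 was at -0.28 (SE 0.12, limma adjusted p = 0.583) in dissected minus normal peripheral tissue. Immediate early genes outside AP-1 had 21 of 22 measured and 0 called, with medians of -0.19 in dissected central minus peripheral and 0.06 in dissected minus normal peripheral tissue.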

How the data were processed

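Thyroid areas were measured on 18 Agilent arrays in 2 colours. The deposited scanner files hold spot intensity in both channels and flags, from Feature Extraction 9.5.1.1 per the file headers (8.5.1.1 per the submitters' processing notes). A deposited table of the authors' own linear ratios, with steps not given in the sources used here, served as an alternative. Its values correlated with the centred log2 ratios at 0.695 to 0.913 per array, and Fos and Jun were not in it. The column medians ran between 0.871 and 1.06, and its centring is known only from these values.

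From the deposited mean intensities, log2 ratios of Cy5 over Cy3 were computed with normexp (offset 50) and loess within arrays, in limma 3.58.1 (R 4.3.3, files read with data.table, version 1.17.8). Of 45018 spots, 1639 controls had weight 0. Spots of a probe were averaged, probes well above background on at least 3 arrays were kept (19082), and the brightest kept probe stood for its gene. Group means were fitted over all arrays, with eBayes and two-sided p-values adjusted by Benjamini-Hochberg over 14664 genes, and called at an adjusted p under 0.05. The fit was also run on simulated data with independent noise and shifts larger than any member difference of the main fit. That run does not show how the fit handles smaller differences or variation shared by arrays. Named genes of each list were the 2 with the smallest p per comparison, and Jdp2-like genes the 5 highest and 3 lowest correlations. Members and lists were chosen with earlier results of these data known.

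Probe positions are on mm7 per the file headers. Promoter sequences are RefSeq's, matched by symbol.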

Additional observations from a re-analysis of the deposited data

Results flagged for a closer look

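Within groups of 5 arrays, 36 were tested for a single value far from the others, a rule by which chance marks about 1 group in 20. Batf on normal central 5 was 1.05, while the other normal central arrays had 0.04 to 0.28. Fosl1 on dissected central 3 was -0.0008206, while the other dissected central arrays had -0.13 to -0.09, and its probe was well above background on 0 of these 5 arrays.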

How the results depend on the processing

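The members called stayed at 0 in each of the 3 tested comparisons under all 13 other settings and all 18 single-array omissions. The settings without the 4 weak arrays (under 30% of probes well above background) and without slide 5 were chosen after seeing the data. The counts of genes called moved more, and the cause was not tested. Between normal central and peripheral tissue the 41 genes became 78 with the scanner's processed signals, 154 with median centring, 8 without the filter on dim probes, 18 with the slide as a block, 1 and 0 within scan days 1 and 2, 94 with the authors' value table, 95 without the weak arrays and 26 without slide 5. Leaving out 1 array gave 1 to 76. In dissected thyroid the 86 became 47 with median centring, 45 with Cy5 alone, 26 and 0 within scan days 1 and 2, 21 with only the groups compared, 193 without the weak arrays and 6 without slide 5, and 48 to 173 without 1 array. In dissected minus normal peripheral tissue the 0 became 1 with processed signals, 5 with median centring and 1 with the value table, and 0 to 1 without 1 array, as in the central area.

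The replicate numbers were not taken as pairing the samples, because the labels do not say which mouse each area came from. Of 24 same-number correlations 9 were over 0.1 (-0.07 to 0.29, median 0.07), against 7 of 96 between other numbers (median -0.01). Arrays of the same number, most of which share a slide, thus had some variation in common. The main fit did not model it. With a replicate block, the 41 genes became 4 and Jdp2 in the peripheral area turned to -0.0088, and no member's call changed.

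These uncalled differences changed sign. In dissected minus normal peripheral tissue, Jdp2 was -0.016 on scan day 1 and -0.0060 without slide 5 (-0.052 to 0.13 without 1 array). Fos was -0.51 on scan day 1 and -0.13 without the weak arrays (-0.12 to 0.31 without 1 array). Fosl2 was 0.034 with median centring, 0.26 on scan day 1 and 0.033 without the weak arrays (-0.11 to 0.046 without 1 array). Junb was -0.17 on scan day 1, and Jund was -0.068 with Cy5 alone, -0.19 on scan day 2 and -0.042 without slide 5 (-0.30 to 0.45 without 1 array). In normal central minus peripheral tissue, scan day 1 gave -0.39 for Fos, -0.080 for Junb, 0.084 for Jund and -0.067 for Batf. Median centring gave 0.18 for Jun and 0.21 for Jund. Fosb was 0.45 with processed signals, 0.26 with Cy5 alone and 0.51 with the value table (-0.035 to 0.0025 without 1 array). Fosl2 was -0.19 with Cy5 alone and -0.10 by its other probe. Junb was -0.092 with Cy5 alone and -0.15 without the weak arrays (-0.15 to 0.33 without 1 array). In dissected central minus peripheral tissue, Fosb was 0.051 with processed signals, 0.075 with the value table and 0.039 without the weak arrays. Fosl2 was -0.14 on scan day 1 and -0.063 by its other probe (-0.0011 to 0.14 without 1 array). Batf was 0.031 with Cy5 alone and 0.16 without slide 5 (-0.28 to 0.088 without 1 array). The dimness of Fosb, Fosl1 and Atf3 limits what their values show.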
